A study of Caenorhabditis elegans with 30 samples.

Results

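Regions enriched for H4K16ac, the acetylated form of lysine 16 of histone H4, were compared between XX and XO larvae of C. elegans. All peaks of both deposited lists were taken, 8734 in XX and 15186 in XO, which together are all 23920 peaks of the series. The XX larvae were wild-type N2 hermaphrodites. The XO larvae were of the strain TY1072, which carries the allele her-1(e1520) on chromosome V and the allele sdc-2(y74) on X, and in which animals with a single X chromosome develop as hermaphrodites. Both were collected as L3 larvae 24 h after hatched L1 larvae were put on plates, and each background had 3 ChIP and 3 input libraries. X number, both mutations and strain differ together between the backgrounds and cannot be told apart. The libraries of a background were pooled for peak calling, so each background is represented by a single list of positions, with no height or score. Without a list per library no difference was tested against replicates. The lists hold no depth per library, and the study's text gives a range over libraries only. The 95% intervals are exact Poisson intervals for densities and their ratios, Wilson intervals for shares and binomial order-statistic intervals for medians. For the change of a density ratio between the lists, a normal approximation on the log scale was used. All of these intervals cover counting error only. The group means of RNA were taken from wild-type XX larvae (4 libraries) and from XO larvae fed vector RNAi bacteria (5 libraries), without values per library.

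Worm dosage compensation rests on a condensin-based complex that SDC proteins recruit to both X chromosomes of hermaphrodites, where it lowers expression and compacts the chromosomes. Acetylation of H4K16 weakens contacts between neighbouring nucleosomes, is found mainly at active genes, and is depleted from dosage compensated X chromosomes. The single X of XO animals is not bound by the complex. On worm autosomes, essential and widely expressed genes lie mostly in the central part of the chromosome, and large families of chemoreceptor, F-box and lectin genes lie mostly in the arms.

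The following stretches of the WS235 assembly show what kind of sequence differed between the lists. For each of the first genes named by the rule, the 300 bp at the centre of its widest peak were taken from the list in which it was more covered, and no base of any of them lay inside a peak of the other list. Where that centre was inside peaks of both lists (far-1 and rpl-16), the middle of the part of the gene covered in only the more covered list was used instead, a choice made after the lists were seen. Capitals mark annotated coding exons, and all stretches are written 5′ to 3′ on the strand of the named gene. Centred 6542 bp upstream of eef-1A.2, the XO peak that spans this gene lay over an exon of its neighbour sek-1, a MAP kinase kinase of the immune response (chrX:7816962-7817261, plus strand).
eef-1A.2, stretch inside a peak in XO only: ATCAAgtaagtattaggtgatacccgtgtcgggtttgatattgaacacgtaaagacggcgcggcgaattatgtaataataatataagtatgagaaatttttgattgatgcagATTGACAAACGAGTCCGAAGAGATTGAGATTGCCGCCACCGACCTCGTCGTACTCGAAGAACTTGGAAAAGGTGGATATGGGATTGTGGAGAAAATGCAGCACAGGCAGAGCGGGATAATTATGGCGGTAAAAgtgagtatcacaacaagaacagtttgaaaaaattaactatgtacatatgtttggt
The stretch for sdc-2 lay wholly within a coding exon, 5861 bp downstream of its start (chrX:11528418-11528717, plus strand).
sdc-2, stretch inside a peak in XX only: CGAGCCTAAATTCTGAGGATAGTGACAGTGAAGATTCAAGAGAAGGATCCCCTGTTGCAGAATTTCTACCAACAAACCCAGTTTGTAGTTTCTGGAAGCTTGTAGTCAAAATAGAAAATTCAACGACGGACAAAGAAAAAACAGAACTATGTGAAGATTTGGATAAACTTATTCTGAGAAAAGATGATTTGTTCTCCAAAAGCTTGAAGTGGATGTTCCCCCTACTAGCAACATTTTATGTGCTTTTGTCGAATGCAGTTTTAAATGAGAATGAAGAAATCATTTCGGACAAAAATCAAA
For her-1, the stretch held 132 coding bases and began within the gene (chrV:9697253-9697552, plus strand).
her-1, stretch inside a peak in XO only: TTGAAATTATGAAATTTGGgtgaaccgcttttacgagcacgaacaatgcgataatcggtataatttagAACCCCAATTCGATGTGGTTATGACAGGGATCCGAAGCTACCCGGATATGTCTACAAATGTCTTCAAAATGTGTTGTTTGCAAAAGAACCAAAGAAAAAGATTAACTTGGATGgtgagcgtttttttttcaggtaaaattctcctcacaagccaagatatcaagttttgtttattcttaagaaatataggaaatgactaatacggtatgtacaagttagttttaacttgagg
In far-1 and rpl-16, both on the minus strand of chromosome III, the stretches were exons and introns of the genes themselves (chrIII:9080625-9080924 and chrIII:3503073-3503372).
far-1, stretch inside a peak in XO only: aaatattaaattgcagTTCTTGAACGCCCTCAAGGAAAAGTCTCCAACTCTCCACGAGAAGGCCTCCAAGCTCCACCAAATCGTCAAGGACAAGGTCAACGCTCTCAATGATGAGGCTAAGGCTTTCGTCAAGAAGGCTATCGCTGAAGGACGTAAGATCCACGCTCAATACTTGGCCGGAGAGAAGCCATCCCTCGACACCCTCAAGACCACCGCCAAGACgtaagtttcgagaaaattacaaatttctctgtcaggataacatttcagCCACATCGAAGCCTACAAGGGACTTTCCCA
rpl-16, stretch inside a peak in XX only: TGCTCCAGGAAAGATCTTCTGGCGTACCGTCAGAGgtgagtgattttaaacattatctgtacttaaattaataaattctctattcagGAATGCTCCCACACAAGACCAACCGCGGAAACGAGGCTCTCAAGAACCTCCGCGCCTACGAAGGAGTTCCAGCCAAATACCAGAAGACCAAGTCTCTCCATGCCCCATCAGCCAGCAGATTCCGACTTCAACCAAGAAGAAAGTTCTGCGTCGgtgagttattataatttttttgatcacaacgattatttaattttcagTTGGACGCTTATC

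Each chromosome was cut into a left, a middle and a right part of equal length, and a peak was counted where its centre lay. The middle part was the most covered part of all 6 chromosomes in both lists. On chromosome II in XX, for example, peaks covered 54.6% of the middle part, 16.5% of the left and 34.2% of the right part. On chromosome V in XX these values were 33.2% in the middle, 16.9% on the left and 12% on the right. In XO they were 34.8, 16.3 and 10.7%. By covered bases, both lists thus had their autosomal maximum in the centre, with arms of unequal coverage. Differences between lists were small by comparison. In the 15 autosomal parts, the covered share in XO minus that in XX ranged from -1.26 to 7.06 percentage points. The highest value belonged to the middle of chromosome III (60.2% in XX and 67.2% in XO), and both negative values belonged to the arms of chromosome V.

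**Figure D1:**
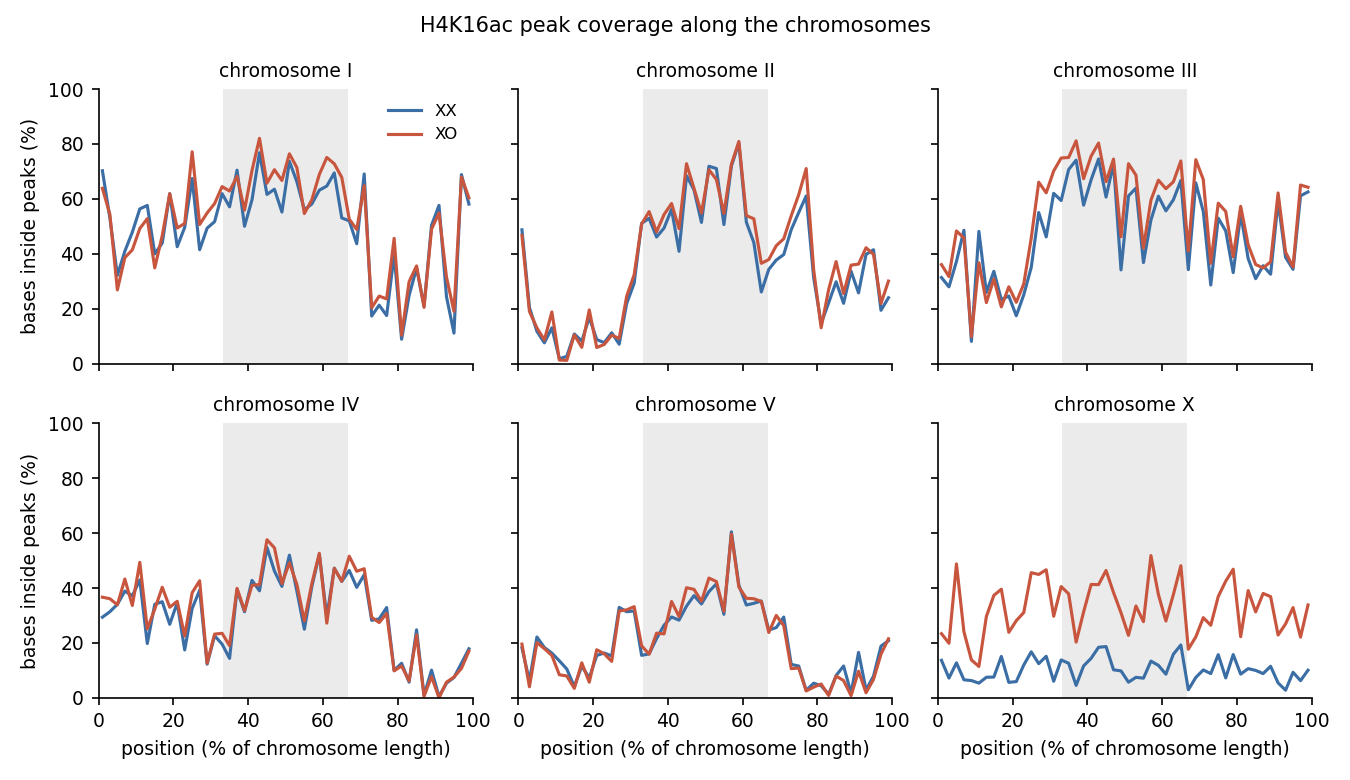
Share of bases inside H4K16ac peaks (vertical axis, %) in 50 equal bins along each chromosome (horizontal axis, % of chromosome length), in XX (blue) and XO (red); grey marks the middle part. The lines of both lists run close together on the 5 autosomes and are separated along the whole X chromosome.

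On X the contrast between centre and arms was smaller by covered bases. In XX, peaks covered 9.94% of the left, 11.7% of the middle and 9.01% of the right part of X. In XO they covered 31.6, 35.5 and 31.3%. The gain was therefore spread over the chromosome, at 21.7, 23.8 and 22.3 percentage points in the left, middle and right part. In bases, the middle to outer ratio of the covered share was 1.23 in XX and 1.13 in XO on X, compared with 1.72 and 1.75 on autosomes.

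By number of peaks the picture differed from that by bases. On autosomes, the middle parts held 111 peaks per Mb in XX against 86.1 in the outer parts, a ratio of 1.29 (95% interval 1.24 to 1.35). In XO the autosomal densities were 167 and 131 peaks per Mb and the ratio was 1.27 (1.22 to 1.32). By peaks per Mb the middle part was the highest on 4 of the 6 chromosomes in XX and on 2 in XO. Chromosomes II, IV and V had ratios above 1 whose intervals left out 1 in both lists. On chromosome IV only the right part was low in peaks, with 96.5 peaks per Mb on the left, 103.4 in the middle and 52.8 on the right in XX, and 163, 158 and 73.7 in XO. On chromosome V the ratio was 1.86 (1.67 to 2.07) in XX and 2.11 (1.94 to 2.31) in XO. On chromosome I it was 0.980 (0.890 to 1.08) and 0.970 (0.894 to 1.05), and on chromosome III it was 1.04 (0.942 to 1.16) and 0.939 (0.862 to 1.02), with all these intervals including 1. Genes are also denser in the middle, and per annotated protein-coding gene the pooled autosomal ratio was 1.05 in XX and 1.03 in XO. This pooled value joined chromosomes that differed in direction. Per gene, chromosome V kept a central excess, at 1.65 in XX and 1.88 in XO, as did chromosome II, at 1.35 and 1.25. Chromosome IV was near 1, at 1.01 and 0.975. Values were below 1 for chromosome I, at 0.753 and 0.745, and for chromosome III, at 0.774 and 0.696. On X the ratio of densities was 1.24 (1.09 to 1.42) in XX and 1.03 (0.958 to 1.11) in XO. The ratio in XO was 0.828 times that in XX (0.713 to 0.962) on X and 0.983 times (0.927 to 1.04) on autosomes. The last 2 intervals are approximate and take the lists as independent, although 890 of 931 X-linked XX peaks overlapped an XO peak.

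**Figure D2:**
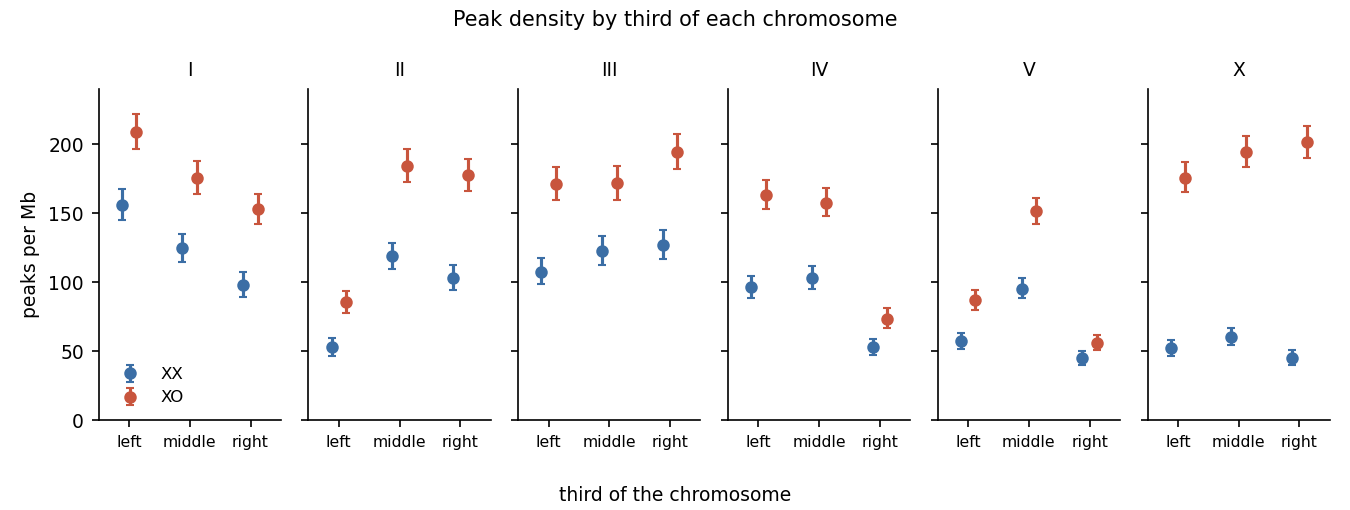
H4K16ac peaks per Mb (vertical axis) in the left, middle and right part of each chromosome, in XX (blue) and XO (red), with 95% Poisson intervals. On X the XO values lie at 176 to 201 peaks per Mb and the XX values at 45.0 to 60.4, whereas the autosomal values of the lists are closer.

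The number of peaks in XO relative to XX was 3.37 in the left, 3.22 in the middle and 4.47 in the right part of X. In the 15 autosomal parts it ranged from 1.24 to 1.72. The right part of X held the fewest peaks of X in XX (266) and the most in XO (1190). Its covered share in XO was below that of the middle part, while the median widths of their XO peaks were close, at 734.5 bp on the right and 740.5 bp in the middle.

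Spacing differed most on X. The median gap between neighbouring peaks on X was 5850 bp in XX (95% interval 4691 to 7058) and 1497 bp in XO (1447 to 1578), which is 3.91-fold longer in XX. On autosomes it was 1638.5 bp (1584 to 1700) in XX and 1376.5 bp (1343 to 1408) in XO, or 1.19-fold longer in XX. In XX the median for X was above those of all autosomes, which ran from 1333.5 bp on chromosome I to 2219 bp on chromosome V. In XO the median of 1497 bp on X lay inside the autosomal range of 1201.5 bp on chromosome III to 1740 bp on chromosome V.

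The difference on X lay in the long gaps. Gaps of 20 kb and over made up 27.5% of the X-linked gaps in XX (95% interval 24.8 to 30.5%) and held 78.8% of the sequence between peaks. In XO they made up 2.49% (2.01 to 3.07%) and held 23.3%. On autosomes their shares of gaps were 8.01% in XX and 3.56% in XO. No gap in either list was shorter than 589 bp, so short distances are not resolved. By part of the chromosome, the median gap on X in XX was 6137 bp on the left, 4154 bp in the middle and 8774.5 bp on the right. In XO these medians were 1489.5, 1521.5 and 1494 bp.

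**Figure D3:**
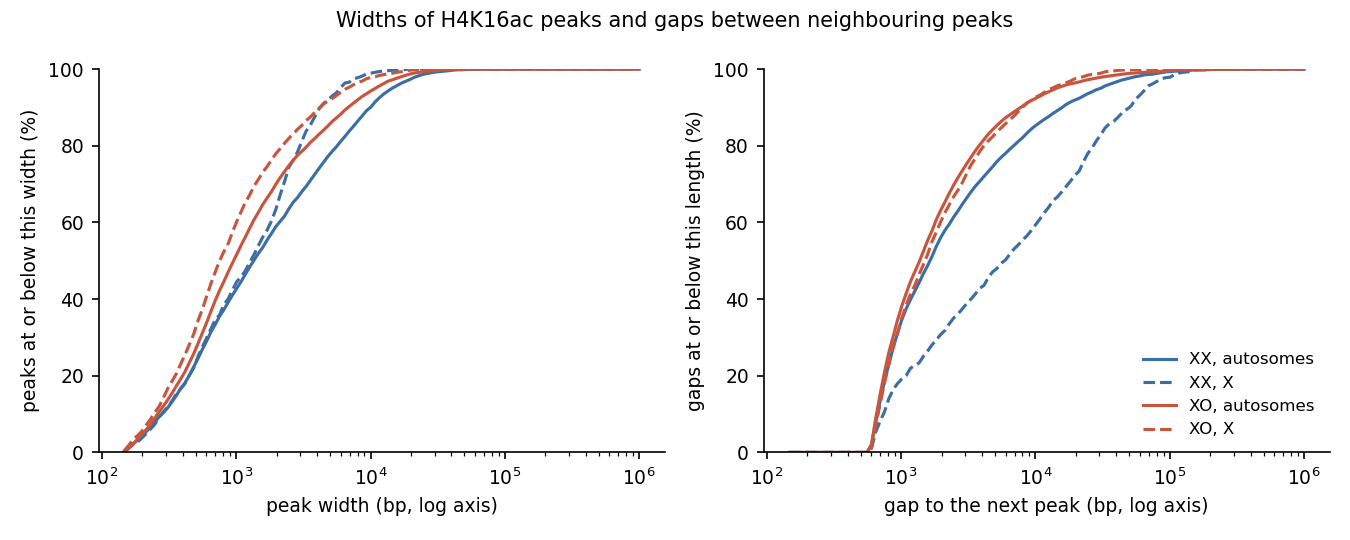
Cumulative shares (vertical axes, %) of peak widths (left, bp on a log axis) and of gaps to the next peak (right, bp on a log axis) in XX (blue) and XO (red), on autosomes (solid) and X (dashed). The curve of X-linked gaps in XX, with its median of 5850 bp, lies to the right of the other 3, whose medians lie between 1376.5 and 1638.5 bp.

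Peaks were narrower in XO on all chromosomes. The median width on autosomes was 1352 bp in XX (95% interval 1285 to 1421) and 955 bp in XO (928 to 982). On X it was 1282 bp (1123 to 1430) and 753 bp (721 to 796). The narrowest peak in both lists was 147 bp wide. On autosomes, peaks of 10 kb and over were 9.94% of the XX peaks and held 47.7% of the sequence inside peaks. In XO they were 5.83% and held 38.1%. The direction on X was the opposite for these broad peaks. They numbered 10 of 931 in XX (1.07%, 0.584 to 1.97%) and 75 of 3377 in XO (2.22%, 1.78 to 2.77%), and their part of the covered sequence was 7.61% in XX and 19.5% in XO. Peaks under 500 bp also took a larger share of X-linked peaks in XO, 32.3% (30.7 to 33.9%) compared with 23.5% (20.9 to 26.4%). X in XO therefore held more peaks at both ends of the width range, and the share between 2 and 5 kb was lower, at 13.8% compared with 28.7% in XX.

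On autosomes, 4382 of 11809 XO peaks (37.1%, 95% interval 36.2 to 38.0%) overlapped no XX peak, and their median width was 525.5 bp. In the other direction, 1377 of 7803 XX peaks (17.6%, 16.8 to 18.5%) overlapped no XO peak. Other XX peaks were in pieces in XO. Of the 7803 autosomal XX peaks, 1582 (20.3%, 95% interval 19.4 to 21.2%) overlapped 2 or more XO peaks, up to 11. Those peaks had a median width of 6631 bp, and among the 776 XX peaks of 10 kb and over the share was 66.2%. The opposite arrangement was less common, since 1032 of 11809 autosomal XO peaks (8.74%, 8.24 to 9.26%) overlapped 2 or more XX peaks. Among the 689 autosomal XO peaks of 10 kb and over, 288 (41.8%) did. Single peaks that overlapped only each other were of similar width. In 3181 such pairs on autosomes the median log2 of XO width over XX width was 0.01, with 51.1% wider in XO (49.3 to 52.8%).

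On X the broad peaks were arranged the other way. Of the 75 X-linked XO peaks of 10 kb and over, 59 (78.7%) overlapped 2 or more XX peaks. Among all X-linked XX peaks, 55 of 931 (5.91%, 4.57 to 7.61%) overlapped 2 or more XO peaks. In 448 X-linked pairs that overlapped only each other, the XO peak was the wider in 404 (90.2%, 87.1 to 92.6%), with a median log2 ratio of 1.04 and median widths of 1371.5 bp in XX and 3225 bp in XO. Both widening of XX peaks and peaks at new places therefore contributed to the XO list. Of the 4.14 Mb of X covered in XO only, 1.79 Mb (43.2%) belonged to the 694 XO peaks that overlapped an XX peak. The other 2.35 Mb (56.8%) belonged to 2683 XO peaks that overlapped none. Those 2683 peaks were narrow, with a median of 606 bp, and lay at a median of 7265 bp from the nearest XX peak. At least 5 kb separated 61.8% of them from any XX peak, compared with 25% of the 4382 autosomal XO peaks without an XX overlap. XX peaks were sparser on X, with a median gap of 5850 bp compared with 1638.5 bp on autosomes. Distances to them are therefore longer on X for any position, and the share for positions outside XX peaks was not computed. Sequence covered in XX only was 0.139 Mb on X and 4.91 Mb on autosomes. Only 41 X-linked XX peaks overlapped no XO peak, and 33 of these lay within 1 kb of one.

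Along genes, XX peaks on X were concentrated near starts. The mean share of bases inside peaks over 2730 X-linked protein-coding genes was 17.3% in the last 100 bp before the start in XX. It was 7.54% in bin 9 of the 10 equal bins of the gene body. In XO the values at the same places were 36.5 and 31.5%. The difference was thus larger in the body, at 23.9 points in that bin, than before the start, at 19.1 points, and the profile in XO was flatter. On autosomes the values for the 2 lists were 43.2 and 44.7% before the start and 39.1 and 40.5% in bin 9 of the body.

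**Figure D4:**
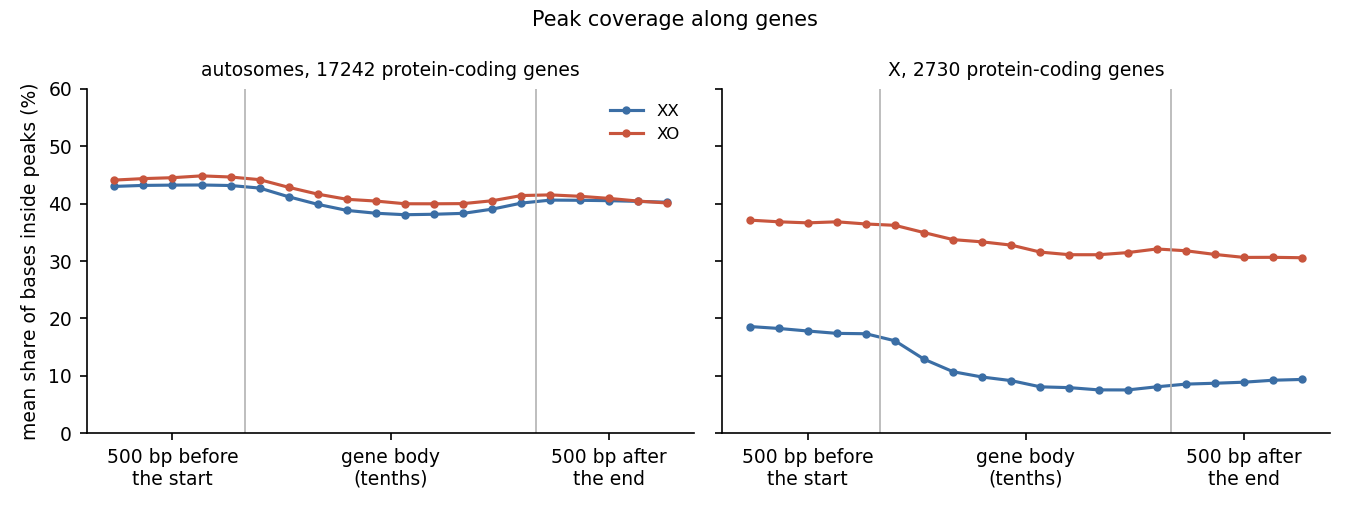
Mean share of bases inside H4K16ac peaks (vertical axis, %) in 5 bins of 100 bp before the start, 10 equal bins of the gene body and 5 bins of 100 bp after the end of protein-coding genes, in XX (blue) and XO (red). On X the XX line falls from 18.6% upstream to 7.54% in the body, while the XO line stays between 30.6 and 37.1%.

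To describe which genes gained or lost coverage, the share of bases inside peaks was taken for each protein-coding gene from 500 bp before its start to its end. A gene was called as a gain where this share was at least 50 percentage points higher in XO and as a loss where it was at least 50 points lower. On X, 491 of 2731 genes were gains, which is 18% of X-linked genes, and 2 were losses, which is 0.0732%. On autosomes, 431 of 17242 genes were gains (2.50%) and 288 were losses (1.67%). A loss required at least 50% coverage in XX. There, 72.5% of X-linked and 44.4% of autosomal genes had no covered base, so the low count of losses on X is partly set by the rule. Genes covered whole in XX, 2.86% on X and 25.9% on autosomes, could not be gains. The shares of gains among autosomes ran from 1.06% on chromosome V to 4.36% on III, and chromosomes IV and V held more losses than gains, with 68 and 55 on IV and 80 and 53 on V. The losses on X were sdc-2 and T27A8.3, the latter named because the count was so low, at 76.0% in XX and 25.9% in XO.

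Gains on X were spread along the chromosome, at 18.5% of genes in the left, 19.1% in the middle and 16.2% in the right part. The mean covered share of an X-linked gene was 10.8% in XX and 33.5% in XO. X-linked genes without any covered base numbered 1980 (72.5%) in XX and 909 (33.3%) in XO, whereas fully covered genes numbered 78 and 321. Between these extremes, 51 X-linked genes went from none to all of their bases. On autosomes, genes without a covered base numbered 7658 in XX and 6551 in XO, and fully covered genes 4474 and 4063, so partial coverage was the more frequent state in XO. In the middle parts of autosomes 3.27% of genes were gains and 2.12% losses. In the outer parts the shares were 2.02 and 1.4%.

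On X, gains were more frequent among genes with more RNA. Grouped by the mean of the authors' mean RPKM in XX and in XO, 5.59% of 286 genes at or under 0.1 RPKM were gains (95% interval 3.47 to 8.89%). The share was 5.94% between 0.1 and 1 RPKM, 14.4% between 1 and 10, 28.6% of 944 genes between 10 and 100 (25.8 to 31.6%) and 23.7% above 100. Autosomal gains showed no such order, at 2.65, 2.82, 2.2, 2.37 and 2.52%. Genes covered whole in XX could not be gains. Such genes made up 3.90% of autosomal genes at or under 0.1 RPKM and 56.1% of those above 100. On X they made up 0.350 and 4.52%. The contrast between X and autosomes is therefore partly set by the rule, and shares among genes that could be gains were not computed. RNA itself moved little with these calls. It was compared only in genes whose mean RPKM over both backgrounds was above 1. These were 437 of the 476 X-linked gains with an RPKM, 255 of 418 autosomal gains and 185 of 273 autosomal losses. On the log2 scale, mean RPKM in XO over that in XX, each plus 1, had a median of 0.09 in such X-linked gains. The median was also 0.09 in such X-linked genes that were neither gain nor loss. On autosomes it was 0.22 in gains, 0.25 in losses and 0.17 in the rest. The RNA came from whole larvae, those of the XO group fed RNAi vector bacteria, and in such bulk samples fewer cells of a type and less RNA per cell cannot be told apart. Markers of larval tissues were present, with a median mean RPKM of 124 for the autosomal members of the muscle list, 79.9 for epidermis, 70.9 for intestine and 53.4 for neurons. The yolk proteins of adult hermaphrodites were near 0, with a median of 0.0136 RPKM over the 5 on X.

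Both genes mutated in the XO strain were called, her-1 as a gain and sdc-2 as a loss. The gene her-1, which directs male fate, had no covered base in XX and was covered whole in XO, by a single peak of 19472 bp that reached beyond the gene on either side. Its RNA stood at 1.70 RPKM in XX and at 434 RPKM in XO. For sdc-2, which starts assembly of the dosage compensation complex on X, coverage was 85.8% in XX, in 3 peaks of 3768, 6202 and 955 bp. In XO a single peak of 826 bp was left, and coverage was 7.35%. Its RNA stood at 4.03 RPKM in XX and 0.0509 RPKM in XO. Both lesions belong to the strain, so neither gene speaks for X number alone. The histone acetyltransferase mys-1, a MYST family enzyme, was at 0% in XX and 7.05% in XO, the latter from a peak of 255 bp.

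Among X-linked gains, the 6 genes with the most RNA that carry a gene-class symbol were eef-1A.2, act-4, col-41, mlc-1, ftt-2 and asb-2. The translation elongation factor eef-1A.2 was covered at 35.1% in XX, by a peak of 3699 bp upstream that reached into the gene. In XO it lay inside a peak of 18430 bp and was covered whole. Actin act-4 was at 46.5% in XX and 100% in XO, where its peak was 19075 bp wide. The 14-3-3 protein ftt-2 was at 46.0 and 100%, and the ATP synthase subunit asb-2 at 47.9 and 100%. These 4 genes had a peak at their start in XX, and in XO a wider peak spanned them. By contrast, the cuticle collagen col-41 had no covered base in XX and 98.6% in XO. The myosin light chain mlc-1 stood at 0.387% in XX, from the edge of a peak of 437 bp, and at 70.4% in XO. RNA of these genes was 2255 RPKM in XX and 2222 in XO for eef-1A.2, 2063 and 1923 for act-4, 1555 and 595 for col-41, and 899.8 and 1224 for mlc-1. Reads that map to several places were kept up to a small number, and eef-1A.2, act-4 and mlc-1 have near-identical copies elsewhere, so their coverage is uncertain.

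**Figure D5:**
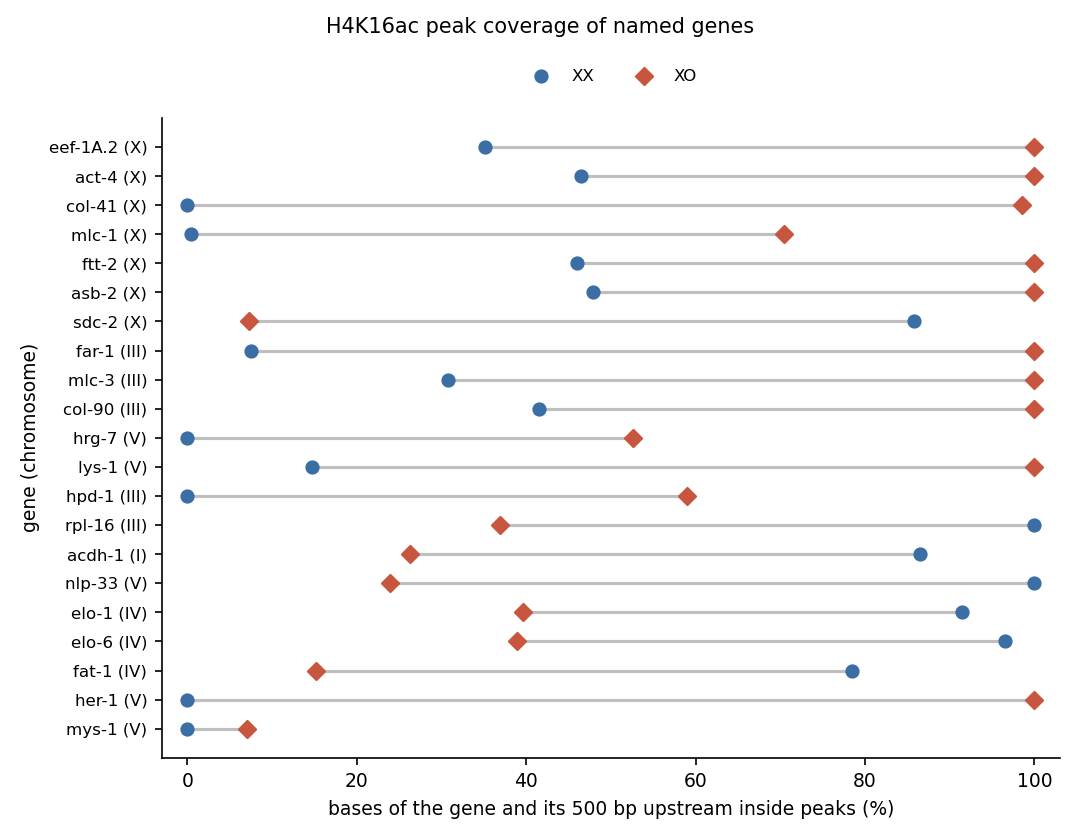
Share of bases inside H4K16ac peaks (horizontal axis, %) from 500 bp before the start to the end of each named gene (vertical axis, with its chromosome), in XX (blue circles) and XO (red diamonds). The 6 X-linked gains end at 70.4 to 100% in XO, and sdc-2 is the X-linked gene that goes the other way.

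The autosomal gains with the most RNA were far-1, mlc-3, col-90, hrg-7, lys-1 and hpd-1. Coverage of far-1, which encodes a fatty acid and retinol binding protein, was 7.56% in XX, from a peak of 8610 bp that ended upstream of the gene. In XO a peak of 13034 bp included it whole. The lysozyme lys-1 stood at 14.8% in XX, from a peak of 244 bp, and at 100% in XO. The myosin light chain mlc-3 had 30.8 and 100%, and the collagen col-90 had 41.5 and 100%. In hrg-7, a secreted aspartic protease homologue that signals heme status, coverage was 0 and 52.6%, and in hpd-1, an enzyme of tyrosine breakdown, 0 and 59.0%. Of these 6 genes, hrg-7 and hpd-1 had no peak in XX, and the other 4 had one beside or inside them. The RNA of hrg-7 was 182 RPKM in XX and 935 in XO, that of far-1 was 3821 and 4127, and that of col-90 was 1527 and 854.

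The autosomal losses with the most RNA were rpl-16, acdh-1, nlp-33, elo-1, elo-6 and fat-1. In each of them an XX peak ended or broke earlier in XO. The ribosomal protein gene rpl-16 lay whole inside an XX peak of 16641 bp. In XO a peak of 10771 bp ended upstream of the gene and left 36.9% covered. The antimicrobial peptide gene nlp-33 was at 100% in XX, at the end of a peak of 11787 bp, and at 23.9% in XO, from a peak of 502 bp. Of these 6 genes, 3 encode enzymes of fatty acid synthesis. The elongase elo-1 was at 91.4% in XX and 39.6% in XO, the elongase elo-6 at 96.6 and 38.9%, and the omega-3 desaturase fat-1 at 78.5 and 15.2%. The acyl-CoA dehydrogenase acdh-1 was at 86.5 and 26.2%. These genes were chosen by their RNA level, so the shared pathway was not tested. RNA was higher in XO in 5 of these 6 genes, for example 281 and 419 RPKM for fat-1, and lower in acdh-1, at 1136 and 596 RPKM. Among autosomal genes above 1 RPKM, RNA was higher in XO in 72.4% of losses and in 65.1% of genes that were neither gain nor loss.

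Gene groups were described with 28 lists, which together held 34 of the 491 X-linked gains, 65 of the 431 autosomal gains and 42 of the 288 autosomal losses. Shares of calls in a list are given beside those of all protein-coding genes, which were 18% gains on X and 2.50% gains and 1.67% losses on autosomes. On autosomes, ribosomal protein and proteasome genes were nearly all covered whole, 78 of 79 and 32 of 33 in XX and 77 and 31 in XO. Of 29 respiratory chain genes 22 were covered whole in both backgrounds, and of 34 splicing genes 24 were in XX and 20 in XO. Of 46 germ line genes, 31 were covered whole in XX and 24 in XO. No proteasome, splicing or germ line gene was a gain or a loss on either kind of chromosome, and rpl-16 was the only ribosomal call. Genes covered whole in XX could not be gains, so the lack of gains in these groups is partly set by the rule. On X, where these groups have few members, coverage was higher in XO in the ribosomal protein and respiratory chain genes, with 2 members each. The 1 X-linked germ line gene had no covered base in either background. The cytochrome c reductase genes ucr-2.1 and ucr-2.2 were at 24.7 and 25.7% in XX and at 100 and 83.6% in XO. Both X-linked ribosomal protein genes together had a mean of 32.7% in XX and 65.1% in XO.

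The muscle list and a short neuron list had several gains on X. Of 12 X-linked muscle genes, 5 were gains (41.7%, beside 18% of all X-linked genes), and the median coverage was 0% in XX and 37.1% in XO, beside 0 and 19.8% over all X-linked genes. Troponin I (tni-1) went from 0 to 100%, and unc-97, a LIM domain protein of muscle attachments, from 13.3 to 100%. Of the 26 autosomal muscle genes only mlc-3 was a gain (3.85%, beside 2.50% of all autosomal genes). Of 5 X-linked genes of the neuron list, 3 were gains (60%), namely syd-2 (6.42 and 85.6%), unc-18 (25 and 100%) and unc-10 (0 and 60.1%), which encode proteins of synaptic vesicle release sites. Of 25 autosomal genes of this list, snap-29 was a gain (0 and 100%) and cpx-1 was a loss. With 12 and 5 members, the shares for X rest on few genes. Their median mean RPKM was 512.6 for muscle and 13.3 for neuron. Over all X-linked genes, 28.6% were gains between 10 and 100 RPKM and 23.7% above 100. Larger nerve-related lists on X had lower shares than the 18%, with 11.8% of 34 neuropeptide genes, 2.70% of 37 ion channel subunits and 0 of 32 neurotransmitter receptors.

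In the other tissue groups the shares of gains on X ran from 0 to 14.3%, beside 18% of all X-linked genes. Of 9 X-linked epidermal genes, dlg-1, a scaffold of cell junctions, was a gain (0 and 100%). Of 25 autosomal ones, vab-10, a cytoskeletal linker of the epidermis, was a gain (22.3 and 75.2%). The intestine list had 1 gain on X, ifd-2, and 1 gain (tsp-1, 18.1 and 100%) and 3 losses on autosomes, with end-3 at 100 and 39% and acdh-1 as given above. Cuticle collagens held 5 gains (3.5%) and 1 loss (0.699%) among 143 autosomal genes, beside 2.50 and 1.67% of all autosomal genes, and 2 gains among 28 on X (7.14%). The largest changes in this group were in col-41, col-109 (0 and 74.7%) and col-56 (26.1 and 100%). Hedgehog-related genes held 3 gains (4.17%) and 1 loss (1.39%) among 72 on autosomes and 1 gain among 12 on X (8.33%), with grl-22 and grl-25 at 0 and 14.9% in XX and 100% in XO, and ptr-23 at 2.22 and 70.3%. Lysozymes and related antimicrobial genes held 1 gain (lys-1) and 1 loss (spp-31, 94.8 and 16.9%) on autosomes and 2 gains on X, among them spp-2 (0 and 67.0%). No vitellogenin gene was called.

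Among regulators and signalling genes on X, the shares of gains ran from 0 to 21.7%, beside 18% of all X-linked genes. Of 23 X-linked nuclear hormone receptors, 5 were gains (21.7%), and the median coverage was 0% in XX and 38.7% in XO, beside 0 and 19.8% over all X-linked genes. The largest changes were in nhr-3 (0 and 100%), nhr-71 (0 and 85.8%) and nhr-32 (21.9 and 100%). Of 246 autosomal ones, 2 were gains and 2 were losses (0.813% each, beside 2.50 and 1.67% of all autosomal genes). Homeobox genes held 3 gains among 18 on X (16.7%), ceh-21 (17.0 and 100%), ceh-89 (23.3 and 94.6%) and ceh-93 (38.5 and 100%), and 2 among 45 on autosomes (4.44%). Neuropeptide genes held 4 gains among 34 on X (11.8%) and 5 gains (4.72%) and 4 losses (3.77%) among 106 on autosomes. The largest changes in this group were in flp-28 on X (0 and 100%), nlp-69 on V (100 and 0%) and flp-23 on III (0 and 86.2%). Ion channel subunits held 1 gain among 37 on X (2.70%), acr-12 (0 and 60.8%), and 1 gain and 1 loss on autosomes, lgc-20 (30.5 and 81.4%) and acr-14 (100 and 6.81%). Among G protein-coupled neurotransmitter receptors no gene was called, with mean coverage of 0.574% in XX and 10.3% in XO for 32 X-linked members.

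The large families of the chromosome arms had few covered genes in either background. Of 1275 autosomal chemoreceptor genes, 11 were gains (0.863%) and 3 were losses (0.235%), beside 2.50 and 1.67% of all autosomal genes, and the mean coverage was 3.67% in XX and 4.66% in XO. The largest changes were in srd-20 (100 and 0%), srg-3 (0 and 78.6%) and srg-1 (0 and 70.4%). Chemoreceptors on X held 1 gain among 33 (3.03%, beside 18% of all X-linked genes). Mean coverage of 237 autosomal C-type lectin genes was 8.25 and 13.2%, with 8 gains (3.38%) and 1 loss (0.422%), among them clec-178 (0 and 100%), clec-183 (17.3 and 100%) and clec-104 (20.8 and 100%). F-box and MATH domain genes included 2 gains (0.506%) and 5 losses (1.27%) among 395 on autosomes, with means of 15.5 and 13.9%. The largest changes were in fbxb-14 (100 and 32.8%), fbxb-56 (100 and 34.4%) and fbxa-64 (86.8 and 23%). Detoxification genes held 2 gains (1.17%) and 7 losses (4.09%) among 171 on autosomes, with ugt-31 at 95.2 and 14%, gst-15 at 100 and 25.6% and gst-8 at 99.9 and 30.4%. Sperm genes held 5 gains (8.06%) and 1 loss (1.61%) among 62, with nspd-1 (0 and 100%), msp-33 (0 and 66.2%) and sss-1 (0 and 59.3%). The median mean RPKM of these 62 genes was 0.0171. Reads that map to several places were kept, and sharing of reads within the sperm gene families was not examined, so these calls are uncertain.

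Heat shock and histone genes had calls in both directions on autosomes. In the heat shock list, 5 of 46 autosomal genes were losses (10.9%, beside 1.67% of all autosomal genes), among them hsp-12.6 (80.3 and 0%) and hsp-16.2 (90.7 and 18.4%). Genes without a covered base in XX could not be losses. They were 2.17% of the autosomal genes in this list and 44.4% of all autosomal genes. The difference between these shares of losses is therefore partly set by the rule. In the same list dnj-4 was a gain (8.93 and 85.3%). On X, 3 of 5 were gains (60%, beside 18% of all X-linked genes). In the histone list, 8 of 75 autosomal genes were gains (10.7%, beside 2.50%) and 5 were losses (6.67%), and all 8 gains lay in clusters on chromosome II where the annotation gives several copies the same symbol. For example, copies named his-15 were at 0% in XX and 100% in XO at 2 places and at 100 and 32.8% at another. These copies are nearly identical, so reads can be shared between them and the calls are uncertain. The 5 X-linked histone genes had a mean of 60% in both backgrounds.

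Of the 8 autosomal genes in the dosage compensation list, sdc-3 and dpy-27 were gains (25%, beside 2.50% of all autosomal genes), a share that rests on few genes. The recruiter sdc-3 was at 17.6% in XX and 81.0% in XO, and dpy-27, a condensin subunit of the complex, at 21.4 and 75.7%. The remaining members are given here because the pathway sets the backgrounds apart, a choice made after their values were seen. The recruiter sdc-1 on X had 13.7 and 42.3%. Coverage of dpy-30 was 100% in both backgrounds and that of capg-1 was 100 and 98.5%, whereas dpy-21 and dpy-28 had little in either, at 0 and 1.35% and at 3.04 and 9.07%. The subunits dpy-26 and mix-1 had 88.9 and 97.7% and 86.0 and 75.9%. For the X-linked genes that count X chromosomes, sex-1 was at 40.2 and 74.9%, fox-1 at 5.81 and 49.1%, ceh-39 at 86.0 and 99.7%, and their target xol-1 at 0 and 37.3%. None of these 4 reached 50 points. In the list of 17 sex determination and X counting genes, her-1 was the only call.

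The enzymes that place or remove acetyl groups were not called as losses. In the list of 14 H4K16 acetylation genes, all autosomal, cbp-1 (31.6 and 100%), a p300-type acetyltransferase, and epc-1 (22.6 and 74.3%), a homologue of Enhancer of Polycomb in the Tip60 complex, were gains (14.3%, beside 2.50%). The mean coverage of the list was 54.4% in XX and 65.4% in XO. Chromodomain protein mrg-1 had 83.9 and 100%, and the deacetylase sir-2.1 had 100 and 80.5%, and both were named after their values were seen.

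Genes that do not encode proteins followed the same division between X and autosomes. Of 276 X-linked tRNA genes, 12 (4.35%, 95% interval 2.50 to 7.44%) overlapped a peak in XX and 63 (22.8%, 18.3 to 28.1%) in XO. Of 336 autosomal tRNA genes, 93 (27.7%) and 99 (29.5%) did. For X-linked microRNA genes the counts were 15 and 29 of 74 (20.3 and 39.2%), and on autosomes 98 and 105 of 187 (52.4 and 56.1%). The piRNA genes, which lie mostly in clusters on chromosome IV, had low shares on autosomes, with 4.99% in XX and 5.42% in XO of 15201 genes. The 162 X-linked piRNA genes had 11.7 and 38.9%. Since tRNA copies are nearly identical, their counts share the uncertainty of repeated sequence.

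The widest peaks of both lists were on autosomes and held many expressed genes. In XX the widest, of 101508 bp on chromosome II, spanned 22 protein-coding genes, among them the enolase enol-1 and the chaperonin subunit cct-2, and in XO 10 peaks covered 92.6% of it. In XO the widest, of 94142 bp on chromosome III, spanned 33 genes, among them the cell cycle kinase cdk-1, cbp-1 and the proton pump subunits vha-1 and vha-2, and 2 XX peaks covered 93.5% of it. These reaches were thus covered in both lists and differed in where the peaks were broken. On X the widest XX peak was 19487 bp and held adm-4 and gpx-7. The widest X-linked XO peak was 27010 bp and held the glyceraldehyde phosphate dehydrogenases gpd-2 and gpd-3, the spectrin spc-1 and sec-3. Its sequence was 70.2% covered in XX, by 5 peaks. The next widest, of 23667 bp, held mlc-1 and the trehalose synthase tps-1, and 6 XX peaks covered 68.1% of it.

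Mean GC content at peak centres was lower in XX peaks without an XO overlap than in the other classes of peaks. On autosomes it was 33.8% in those 1377 peaks, 35.8% in XX peaks that overlapped an XO peak, 35.9% in XO peaks without an XX overlap and 35.5% in all windows. In the 41 such XX peaks on X it was 33.5%. Over all peaks the lists were close. The mean GC content of the 300 bp at peak centres on X was 35.2% in XX and 34.9% in XO, compared with 35.2% in all 300 bp windows tiling X. These 4 motifs were searched on both strands in these windows, and a match is a description of sequence and not a bound site. GCGCAGGG, the core of a motif enriched at sites where the dosage compensation complex is recruited to X, was in 0 of 931 X-linked XX windows, which allows a share of up to 0.322% when a count of 0 is taken to allow 3, and in 6 of 3377 XO windows (0.178%, 0.0815 to 0.387%). It was in 0.125% of all windows of X. GAGAGAGA was in 3.65% of XX windows on X (2.63 to 5.06%), in 1.57% of XO windows (1.20 to 2.05%) and in 1.66% of all windows. In XO peaks of X without an XX overlap this share was 1.23% (0.877 to 1.72%), and in those with one it was 2.88% (1.87 to 4.41%). On autosomes it was 2.91% in XX, 2.73% in XO and 2.0% in all windows. TGATAA, a site of intestinal and epidermal zinc finger factors, was in 28.1% of XX and 27.6% of XO windows on X and in 27% of all. CACGTG, an E-box, was in 3.11, 3.97 and 3.91%. None of the 4 motifs was present in the 5 printed stretches.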

How the data were processed

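For ChIP-seq, the authors used Trim Galore 0.3.7 on single-end reads and Bowtie 1.1.1 for alignment to WS235, and kept reads mapping to a small number of places. Broad peaks were then called with MACS2 2.1.0 from duplicate-filtered reads, pooling the ChIP and the input libraries of each background. Start and end positions in bp are all that the deposited lists hold. The XO list gives X before the autosomes and the XX list gives it last. Whether X was called separately in XO is not stated in the sources used here. Separate normalization of X and autosomes in XO is described by the authors for coverage after peak calling. A list of libraries in the supplement names other strain designations for some XO ChIP replicates than the labels do, and the labels were followed.

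For RNA-seq, the authors deposited mean RPKM per group, computed with Cufflinks from reads aligned with TopHat without use of strand. No column was left unmapped (0). A deposited table with the authors' own DESeq2 fold changes and adjusted p-values was not used.

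Here, peaks were described with numpy 2.4.6, pandas 2.3.3 and scipy 1.17.1 in Python 3.11.15, and drawn with matplotlib 3.10.9. Chromosome lengths and sequence came from the RefSeq copy of the same assembly, and genes from Ensembl release 115, a later annotation of it. Of 19973 protein-coding genes, 19605 (98.2%) had an RPKM. Overlap required 1 bp. Calls of gains and losses, 50 percentage points of coverage, apply to all genes with no filter on low values. A pseudocount of 1 was added to RPKM before log2, and medians of log2 ratios were taken over genes with a mean RPKM above 1. The code was tested on simulated peaks with planted gains.

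Named genes were, for X and autosomes and for gains and losses, the 6 called genes with a gene-class symbol and the highest mean RPKM, also her-1, sdc-2 and mys-1, up to 3 members of each list with the largest difference, and genes in the 3 widest peaks. The gene lists were written by hand from gene classes and markers. Members and lists were chosen with earlier results of these data known.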

Additional observations from a re-analysis of the deposited data

How the results depend on the processing

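No paired analysis was possible because each background has a single pooled peak list, and for the same reason no replicate could be left out. A stricter peak threshold could not be run on positions without scores. Of 78 recomputed values, 37 differed by less than their counting interval, or less than 1.5 times for counts, and 41 moved further. Joining peaks closer than 500 bp could change nothing, since the shortest gap was 589 bp. The values at that setting are among the 37 and do not speak for stability. The autosomal middle to outer density ratio of 1.29 in XX and 1.27 in XO became 1.20 and 1.18 with peaks closer than 1000 bp joined, 1.72 and 1.75 by bases inside peaks, and 1.05 and 1.03 per gene. In XO it was 1.33 with peaks of at least 500 bp. On X in XO the ratio of 1.03, whose interval included 1, became 1.13 by bases and went below 1 per gene, to 0.925. With peaks of at least 500 bp, the median gaps were 2295 bp on autosomes and 9963 bp on X in XX, and 1743 and 1989 bp in XO. The median widths were then 2295 and 1892 bp in XX and 1516 and 1213 bp in XO. With peaks closer than 1000 bp joined, the gaps were 3180 and 10102 bp in XX and 2385 and 2530 bp in XO, and the widths 2528 and 1836 bp and 1449 and 977 bp. XX therefore kept longer gaps and wider peaks than XO under these settings, on autosomes and on X. Where at least 50% of the smaller peak had to overlap, 629 autosomal XO peaks held 2 or more XX peaks, and 1142 autosomal XX peaks held 2 or more XO peaks. At 30 percentage points, gains and losses were 921 and 7 on X and 1211 and 834 on autosomes. At 70 points they were 207 and 1, and 157 and 109. With the 500 bp before the start alone, losses were 21 on X and 785 on autosomes, and autosomal gains were 1006. With all annotated genes, gains and losses were 1298 and 29 on X and 1379 and 915 on autosomes.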

Other observations

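In bins of 50 kb, coverage was higher in XO in 351 of the 355 bins of X, lower in 1 and 0 in both lists in 3. The lower bin (X:11500001-11550000) held sdc-2, at 27.2% in XX and 14.4% in XO. The bin directly to its right, with the GTPase mig-2 and the acetylcholine receptor lev-8, was among the highest, at 11 and 69.4%. The largest difference on X was in the bin with the amino acid transporter aat-3 and nhr-40 (X:2550001-2600000), at 17.2 and 80.9%. A bin with the epidermal genes let-4 and sym-1, both for extracellular leucine-rich repeat proteins, stood at 0.578 and 58.8%. A covered base was missing in XX alone in 56 bins of X and in XO alone in 0.

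Of the 1653 autosomal bins, 926 were higher in XO, 597 lower and 130 equal, with a median difference of 0.884 points. The largest difference lay in the bin on chromosome I that holds part of vab-10, at 25.9% in XX and 83.7% in XO. On chromosome III, a bin with the potassium channel unc-103 stood at 13.2 and 48.4%, and a bin with the teneurin ten-1 at 17.9 and 51.1%. The largest difference in the other direction was on chromosome I, at 48.8 and 19.8%, in a bin with 10 genes.

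The longest stretches without a peak lay in the same places in both lists on several chromosomes. On chromosome V a gap of 398877 bp in XX and one of 417240 bp in XO both held slo-1, a calcium-activated potassium channel, among 87 and 93 genes, of which 27 and 33 were above 1 RPKM. On chromosome IV the longest gap was 286569 bp in XX and 685784 bp in XO, from almost the same left end, and 2 XX peaks lay within the longer one. On X the longest gap in XX, of 323849 bp, held 10 XO peaks. The longest one in XO, of 143342 bp, held tbx-31 and tbx-32 and lay inside it. These bins and gaps were chosen by their values and are descriptions.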
